A study of Helianthus annuus with 180 samples.

Results

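PIN7-like (Ha412HOChr01g0035481) is the sunflower gene whose best Arabidopsis match in the study's tables is AT1G23080, the auxin efflux carrier PIN7. It was followed by its gene ID through both experiments, over all sides, times and days, as 1 of the 46480 genes in the count tables, and its ID places it on chromosome 1. All samples were stem peels of wild-type HA412-HO sunflowers aged 2 weeks, and each library pooled a pair of plants. For phototropism, the shaded and lit sides of chamber-grown plants facing unidirectional blue light (280 µmol m-2 s-1, 25 °C) were sampled at 9 Zeitgeber times (ZT, hours after dawn) between ZT3, when the light began, and ZT21, with 6 libraries per side and time. For heliotropism, the west and east sides of plants that went into the field at 4 to 5 days of age were sampled every 4 h over 2 days, in 3 libraries for each side at each time. Before either experiment, seedlings grew in chambers with 16 h of light and 8 h of darkness.

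PIN proteins carry the growth hormone auxin out of plant cells, and their uneven placement in the cell membrane sets the direction in which auxin moves through a tissue. In Arabidopsis, PIN7 acts with its close relatives PIN3 and PIN4 in the sideways movement of auxin that accompanies bending toward light and against gravity. In a bending stem the side with more auxin usually grows faster. The study itself listed PIN7-like from these libraries, both among genes rapidly induced on shaded sides at ZT4 and among genes higher on lit sides at ZT15, so the tests at these times are not independent evidence of its direction. The transcript was also followed by the study with quantitative PCR in other plants, newly moved to the field. There the paper reports no side difference of PIN7-like on the first day. On later days its pattern began to resemble that of the field RNA sequencing. The primer pair is shown here because it is the stretch of sequence that identifies this gene in the study's tables, with no base singled out:
PIN7-like forward primer: gctgggctttgacttcttgc
PIN7-like reverse primer: cctaggcctgcatctgagag

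Levels are given in CPM, that is, counts scaled to a common library total with the TMM method. Estimated counts summed to between 4485611 and 28394943 per library in phototropism and between 5074975 and 30834562 in heliotropism. PIN7-like had at least 27 counts in every library of either experiment, so no level below rests on an absent count. The 10 epidermis markers and the 18 vascular markers, homologs of Arabidopsis genes, were all detected in both experiments. The peels hold several tissues, and a lower level in a peel cannot be told apart between fewer cells that express the gene and less RNA per cell. Summed epidermis markers lay between 124 and 538 CPM on shaded sides and between 176 and 632 CPM on lit sides, and summed vascular markers between 688 and 1162 CPM on shaded sides and between 599 and 1386 CPM on lit sides. In the field, epidermis markers summed to between 142 and 431 CPM on west sides and between 103 and 370 CPM on east sides, and vascular markers to between 511 and 1014 CPM on west sides and between 487 and 1062 CPM on east sides.

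The first comparison asks how the gene differs across a stem under unidirectional blue light. The study reports that such stems first bent toward the light and later straightened, with ZT15 as its straightening time point. Differences at ZT15, ZT18 and ZT21 therefore do not describe bending toward the light. PIN7-like rose on the shaded side between ZT3 and ZT4, was 2.4-fold higher there than on the lit side at ZT5, and was lower there at every time sampled between ZT12 and ZT21, by as much as 8.87-fold at ZT18. At ZT3 the shaded side held 3.71 to 18.2 CPM (median 12.2) and the lit side 8.07 to 19.1 CPM (median 16.5). These ranges overlapped and the log2 fold change of shaded over lit was -0.43 ± 0.34 (SE), with an adjusted p of 1 from edgeR's quasi-likelihood test, which called 0.00306% of genes at this time.

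At ZT4 the shaded side held 34.8 to 61.5 CPM (median 47.6) and the lit side 16.1 to 33.1 CPM (median 24.1). The ranges did not overlap, and the shaded library was higher in 6 of 6 pairs of the same number. The log2 fold change was 0.94 ± 0.33 (SE), and in edgeR's test the adjusted p was 0.0541, which misses the threshold of 0.05 that 10.8% of the 32644 genes tested passed. Libraries with the same replicate number deviated together in this experiment, and with the number as a block the log2 fold change was 0.93 with an adjusted p of 0.0106 in edgeR, in a fit that called 6777 genes in place of 3532. At ZT5 the shaded side held 38.3 to 116 CPM (median 59.7) and the lit side 14.8 to 38.1 CPM (median 28.1). PIN7-like was higher on the shaded side by a log2 fold change of 1.27 ± 0.34 (SE, edgeR adjusted p = 0.00412, 14.1% of genes called), again with no overlap and in 6 of 6 pairs. Without replicate 1 the log2 fold change was 0.99 and the edgeR adjusted p 0.0745. Of the 10 epidermis markers, 2 were called higher on the shaded side at ZT5, and their part in the result was not tested.

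**Figure D1:**
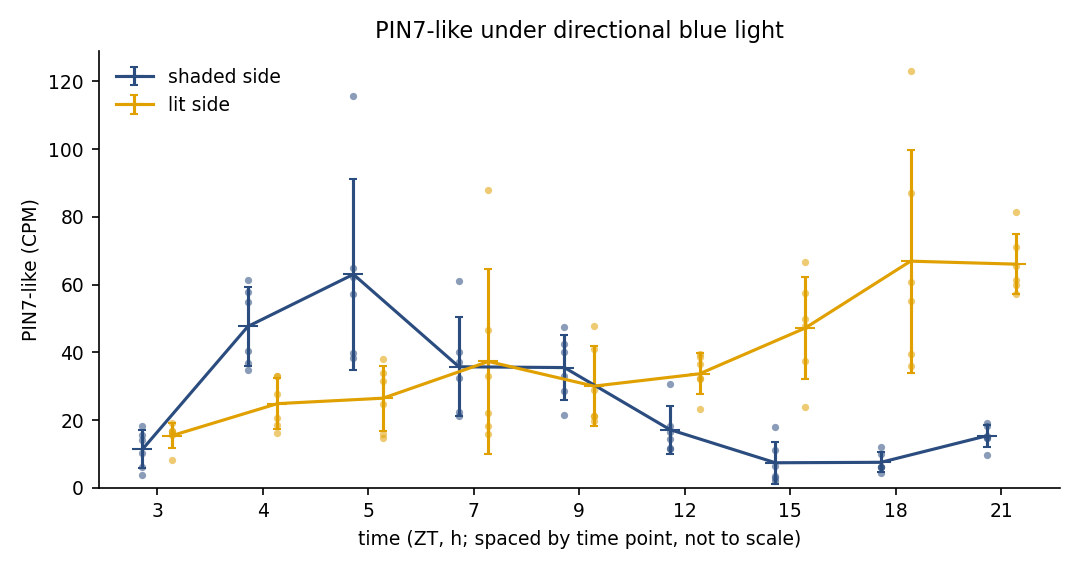
CPM of PIN7-like (vertical axis) in each library of the shaded and lit sides at 9 times (ZT, hours, spaced by time point); points are libraries, lines join the means and bars are the SD of 6 libraries. The shaded side stands above the lit side at ZT4 and ZT5 and below it from ZT12, with means of 7.40 CPM shaded and 47.2 CPM lit at ZT15.

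At the intermediate times the ranges of the sides overlapped. The shaded side averaged 35.7 ± 14.6 CPM at ZT7 and the lit side 37.3 ± 27.2 CPM (SD, n = 6 each). At ZT9 the means were 35.5 ± 9.62 CPM on the shaded side and 30.04 ± 11.8 CPM on the lit side. The log2 fold changes were -0.06 ± 0.33 and 0.24 ± 0.33 (SE), with edgeR adjusted p of 0.935 and 0.694, while 23.3% and 22.3% of all genes were called at these times.

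From ZT12 the shaded side was the lower one. At ZT12 the shaded side held 11.5 to 30.7 CPM (median 15.4) and the lit side 23.2 to 39.6 CPM (median 34.4). PIN7-like was lower on the shaded side by a log2 fold change of -0.96 ± 0.34 (SE, edgeR adjusted p = 0.0375, 16.7% of genes called), in 6 of 6 pairs although the ranges overlapped. This call passed in 1 of 6 fits that left out a replicate number and was lost without replicate 1, 2, 3, 5 or 6, where log2 fold changes lay between -0.94 and -0.82.

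At ZT15 the shaded side held 2.12 to 17.9 CPM (median 5.08) and the lit side 23.8 to 66.8 CPM (median 48.8). PIN7-like was 6.35-fold lower on the shaded side, a log2 fold change of -2.67 ± 0.36 (SE, edgeR adjusted p = 1.77e-08, 7.73% of genes called). At ZT18 the shaded side held 4.47 to 12.2 CPM (median 6.19) and the lit side 35.9 to 123 CPM (median 58.0). This was the widest gap of the 9 times, a log2 fold change of -3.15 ± 0.37 (SE, edgeR adjusted p = 1.04e-10, 6.51% of genes called) or 8.87-fold lower. At ZT21 the shaded side held 9.79 to 19.2 CPM (median 15.04) and the lit side 57.2 to 81.3 CPM (median 63.4), with a log2 fold change of -2.10 ± 0.34 (SE, edgeR adjusted p = 2.73e-06, 6.22% of genes called). At these 3 times no shaded library reached the lowest lit library. Vascular markers, summed, had a shaded over lit ratio of medians of 0.882 at ZT15, 0.974 at ZT18 and 0.901 at ZT21, and none of the 18 was called at these times.

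**Figure D2:**
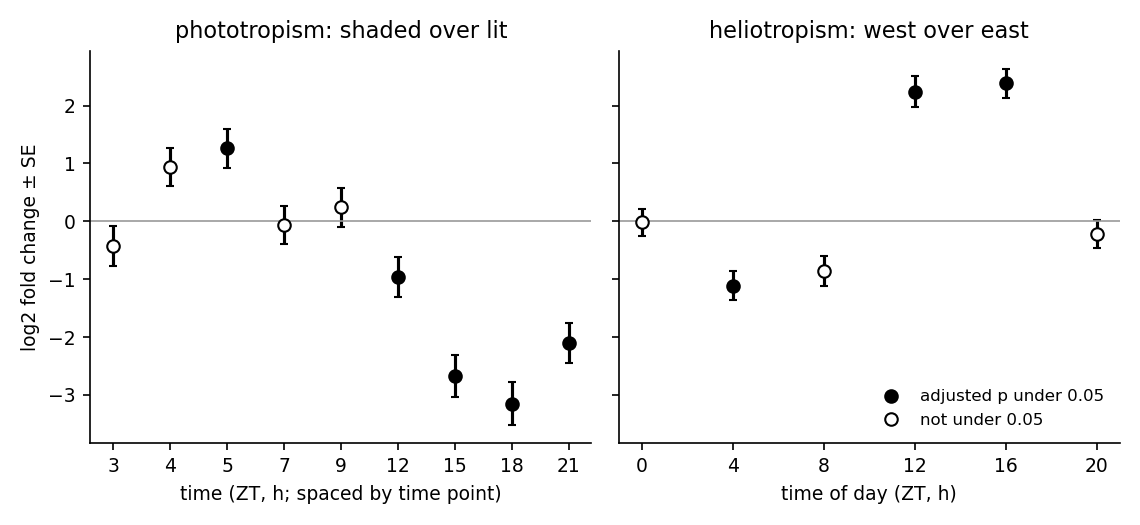
Log2 fold change ± SE of PIN7-like between the sides (vertical axis) at each time (ZT, hours), shaded over lit in phototropism on the left and west over east in heliotropism on the right; filled points have an edgeR adjusted p under 0.05. The phototropism values turn from 1.27 at ZT5 to -3.15 at ZT18, and the heliotropism values from -1.11 at ZT4 to 2.39 at ZT16.

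The change of the side difference over time was tested directly. Between ZT4 and ZT15 the shaded over lit log2 fold change fell by 3.60 ± 0.49 (SE, edgeR adjusted p = 8.93e-08), a test passed by 5.24% of genes. Against ZT3 the difference was higher at ZT5 by 1.70 (adjusted p = 0.0171, 5.55% of genes called), and lower at ZT15 (-2.24, adjusted p = 0.00281, 1.37% called), ZT18 (-2.72, adjusted p = 0.000107, 1.52% called) and ZT21 (-1.67, adjusted p = 0.0477, 1.6% called), all in edgeR. At ZT4 the difference from ZT3 was 1.37 with an adjusted p of 0.101 in edgeR (3.83% of genes called), and with the replicate block it was 1.401 with an adjusted p of 0.0179. The differences from ZT3 at ZT7, ZT9 and ZT12 were 0.37, 0.67 and -0.53 and missed the threshold, where 7.97%, 7.27% and 3.22% of genes were called. The ZT5 call was lost without replicate 1 or 3 (log2 changes of 1.52 and 1.37), the ZT15 call without replicate 1 (-1.90), and the ZT21 call passed in 1 of 6 fits that left out a replicate number, being lost without replicate 1, 2, 4, 5 or 6.

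On the shaded side 2 of 8 steps between neighboring times passed the threshold. It rose between ZT3 and ZT4 by a log2 change of 2.06 ± 0.35 (SE, edgeR adjusted p = 1.83e-05, 3.65% of genes called), and it fell between ZT12 and ZT15 by 1.22 on the log2 scale (edgeR adjusted p = 0.0344, 3.34% of genes called). That second call was lost without replicate 1, 2, 3 or 4, where the values lay between -1.29 and -0.82. At the other 6 shaded steps, in time order, 0.303%, 4.03%, 0.993%, 2.36%, 2.79% and 0.505% of genes were called. Of these steps, ZT5 to ZT7 (-0.82), ZT9 to ZT12 (-1.04) and ZT18 to ZT21 (1.03) had an unadjusted p under 0.05. Their edgeR adjusted p were 0.166, 0.0925 and 0.327. None of the 8 steps on the lit side passed the threshold in edgeR, where PIN7-like averaged 15.4 ± 3.79 CPM at ZT3 and 66.1 ± 8.88 CPM at ZT21 (SD, n = 6 each). 1 of the 8, ZT3 to ZT4, had an unadjusted p under 0.05 (log2 change 0.69, edgeR adjusted p = 0.16), and DESeq2 called 0 of them. At these lit steps, in time order, 17.9%, 15.9%, 6.29%, 2.33%, 4.34%, 3.12%, 3.37% and 0.0858% of genes were called.

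Over the 18 groups of side and time the means spanned 9.04-fold, with the lit side at ZT18 at the top (66.9 CPM) and the shaded side at ZT15 at the bottom (7.40 CPM). Neighbors in this order were close. In 17 of 17 neighboring pairs the library ranges overlapped, and in 1 pair the gap exceeded the larger SD of the pair, that between the lit side at ZT4 and the shaded side at ZT12.

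The second comparison asks how the gene differs across stems that track the sun in the field. PIN7-like was lower on the west side at ZT4 and higher there at ZT12 and ZT16, by 4.71-fold and 5.23-fold. With the days combined, at ZT4 the west side held 10.6 to 26.7 CPM (median 16.8) and the east side 31.2 to 47.7 CPM (median 37.6). No west library reached the lowest east library, and the log2 fold change of west over east was -1.11 ± 0.25 (SE, edgeR adjusted p = 0.0261), in a comparison where 0.152% of the 34315 genes tested were called. The call passed in 1 of 6 fits that left out a replicate number of a day, being lost without day 1 replicate 1, 2 or 3 or day 2 replicate 1 or 3, with values from -1.15 to -1.05.

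At ZT8 the west side averaged 9.51 ± 2.38 CPM and the east side 17.4 ± 7.11 CPM (SD, n = 6 each), a log2 fold change of -0.85 ± 0.26 (SE) with an edgeR adjusted p of 0.0816 where 1.57% of genes were called. At ZT12 the order was inverted, with 16.8 to 30.9 CPM (median 22.1) on the west side and 2.42 to 7.45 CPM (median 4.88) on the east side. The log2 fold change was 2.24 ± 0.27 (SE, edgeR adjusted p = 1.77e-08, 1.79% of genes called). At ZT16 the west side held 44.7 to 69.5 CPM (median 58.8) and the east side 4.87 to 17.0 CPM (median 9.96). This was the largest of the 6 differences, a log2 fold change of 2.39 ± 0.25 (SE, edgeR adjusted p = 5.24e-10, 5.78% of genes called) or 5.23-fold higher on the west side. At ZT16, 2 of 10 epidermis markers were called higher on the west side, with a ratio of median sums of 1.14, and their part in the result was not tested.

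At the remaining times the ranges of the sides overlapped. At ZT20 the west side averaged 33.4 ± 12.6 CPM and the east side 38.8 ± 11.0 CPM, and at ZT0 the west side averaged 56.8 ± 15.3 CPM and the east side 57.6 ± 5.63 CPM (SD, n = 6 each). The log2 fold changes were -0.21 ± 0.24 and -0.02 ± 0.24 (SE), with edgeR adjusted p of 0.789 and 1, where 3.54% and 0.0554% of genes were called.

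**Figure D3:**
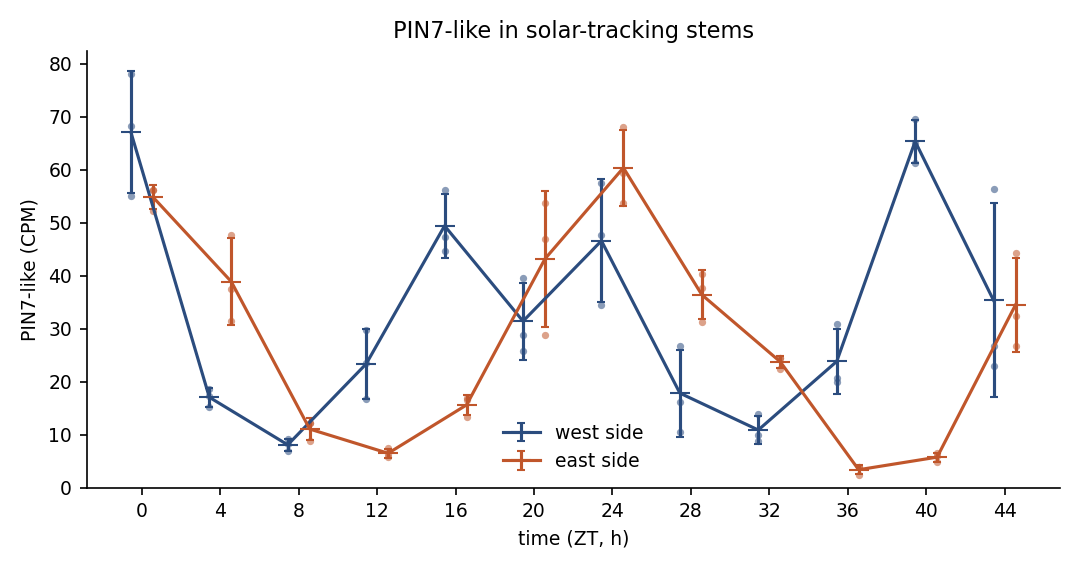
CPM of PIN7-like (vertical axis) in each field library of the west and east sides over 2 days (ZT, hours); points are libraries, lines join the means and bars are the SD of 3 libraries. On both days the west side lies below the east side at ZT4 and ZT28 and above it at ZT12, ZT16, ZT36 and ZT40.

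The labels name no batch, but their hours span 2 days, and each day was read on its own. On the first day the west libraries held 15.2, 17.3 and 18.7 CPM at ZT4, and the east libraries 31.5, 37.4 and 47.7 CPM. At the same hour of the second day, ZT28, the west libraries held 10.6, 16.3 and 26.7 CPM and the east libraries 31.2, 37.7 and 40.3 CPM. The west side was lower in all 3 numbered pairs on either day, with log2 fold changes of -1.19 (edgeR adjusted p = 0.0273, 0.0729% of genes called) and -1.03 (adjusted p = 0.133, 0.0379% called). The first of these calls was lost without day 1 replicate 1, 2 or 3. At ZT32 the west libraries held 8.78, 10.03 and 13.9 CPM and the east libraries 22.4, 24.4 and 24.4 CPM, a log2 fold change of -1.12 with an edgeR adjusted p of 0.0285 (0.6% of genes called). At ZT8 of the first day it was -0.45 with an adjusted p of 0.8 (0.586% called). The ZT32 call was lost without any replicate of day 2, and without day 2 replicate 1 the adjusted p was 0.318 in edgeR. It was also lost without day 1 replicate 2 or 3, which hold no ZT32 library. There the log2 fold change stayed at -1.12, with edgeR adjusted p of 0.0524 and 0.0543.

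Late in the day both days showed the west side higher. At ZT12 the west libraries held 16.8, 23.5 and 29.8 CPM and the east libraries 5.81, 6.30 and 7.45 CPM, and at ZT36 the west libraries held 19.9, 20.8 and 30.9 CPM and the east libraries 2.42, 3.86 and 3.96 CPM. The log2 fold changes were 1.85 and 2.82, with edgeR adjusted p of 1.96e-05 and 5.8e-09 (0.184% and 1.27% of genes called), and the first was 1.60 with an adjusted p of 0.0548 without day 1 replicate 3. At ZT16 the west libraries held 44.7, 47.3 and 56.2 CPM and the east libraries 13.4, 16.5 and 17.0 CPM. At ZT40 the west libraries held 61.3, 65.1 and 69.5 CPM and the east libraries 4.87, 5.99 and 6.50 CPM. The log2 fold change was 1.66 at ZT16 and 3.49 at ZT40, with edgeR adjusted p of 4.17e-05 and 1.19e-12 (1.01% and 3.35% of genes called). The second day exceeded the first by 1.83 ± 0.37 (SE) at this hour, with an edgeR adjusted p of 0.121 and an unadjusted p of 7.04e-06. edgeR called 0 genes for a change between days at ZT16, where 784 had an unadjusted p under 0.05, and DESeq2 gave PIN7-like an adjusted p of 0.00304.

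Within a side the level changed at 11 of 12 steps between neighboring times. At single steps 14.4% to 37.8% of all genes were called, and how many genes changed at as many steps was not counted. On the west side it fell between ZT0 and ZT4 by 1.70 on the log2 scale (edgeR adjusted p = 5.23e-08, 37.1% of genes called) and between ZT4 and ZT8 by 0.88 (adjusted p = 0.00539, 34% called), and it rose between ZT8 and ZT12 by 1.32 (adjusted p = 4.16e-05, 25% called) and between ZT12 and ZT16 by 1.28 (adjusted p = 1.72e-05, 36% called). It then fell by 0.77 between ZT16 and ZT20 (adjusted p = 0.0185, 15.5% called) and rose by 0.76 between ZT20 and ZT0 (adjusted p = 0.017, 18.5% called), all in edgeR. On the east side it fell between ZT0 and ZT4 by 0.61 (edgeR adjusted p = 0.0371, 37.8% called), between ZT4 and ZT8 by 1.14 (adjusted p = 0.000181, 33.6% called) and between ZT8 and ZT12 by 1.77 (adjusted p = 4.9e-07, 21.8% called). It rose between ZT12 and ZT16 by 1.13 (edgeR adjusted p = 0.000545, 35.5% called) and between ZT16 and ZT20 by 1.83 (adjusted p = 2.86e-08, 14.4% called), and between ZT20 and ZT0 the log2 change was 0.56 with an adjusted p of 0.093 (18.1% called). The lowest mean of the combined days stood at ZT8 on the west side and at ZT12 on the east side. Steps from ZT20 to ZT0 combine the days, so their ZT0 groups include libraries taken before any at ZT20. Calls at the following steps were lost in some fits that left out a replicate number: east ZT0 to ZT4 without day 1 replicate 2 or 3 or day 2 replicate 1, 2 or 3, west ZT16 to ZT20 without day 1 replicate 3 or day 2 replicate 2 or 3, and west ZT20 to ZT0 without day 1 replicate 1, 2 or 3 or day 2 replicate 2.

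Over the 24 groups of side and time in the field the means spanned 19.6-fold, with the west side at ZT0 at the top (67.1 CPM) and the east side at ZT36 at the bottom (3.41 CPM). In 21 of 23 neighboring pairs of this order the library ranges overlapped, and in 5 pairs the gap exceeded the larger SD of the pair.

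A 24 h cosine was fitted to the CPM of each side, as a test of a daily rhythm. Both sides passed the test. On the west side the fit had a mean level of 33.0 CPM, an amplitude of 20.2 ± 3.59 CPM and a peak at 19.6 ± 0.678 h (SE, 36 libraries, adjusted p = 4.32e-05 from the F test), and 69.6% of genes were called rhythmic there. On the east side it had a mean level of 27.9 CPM, an amplitude of 25.7 ± 1.69 CPM and a peak at 0.238 ± 0.251 h (SE, 36 libraries, adjusted p = 5.92e-14 from the F test), with 74% of genes called. The cosine took up 0.49 of the variance on the west side and 0.875 on the east side. Measured west means of the combined days were 57.4 CPM at ZT16, 33.4 CPM at ZT20 and 56.8 CPM at ZT0. The fitted west peak thus lies next to a sampled low and does not mark a measured maximum. The rhythm differed between the sides in edgeR (adjusted p = 1.68e-08), a test passed by 6.53% of genes.

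**Figure D4:**
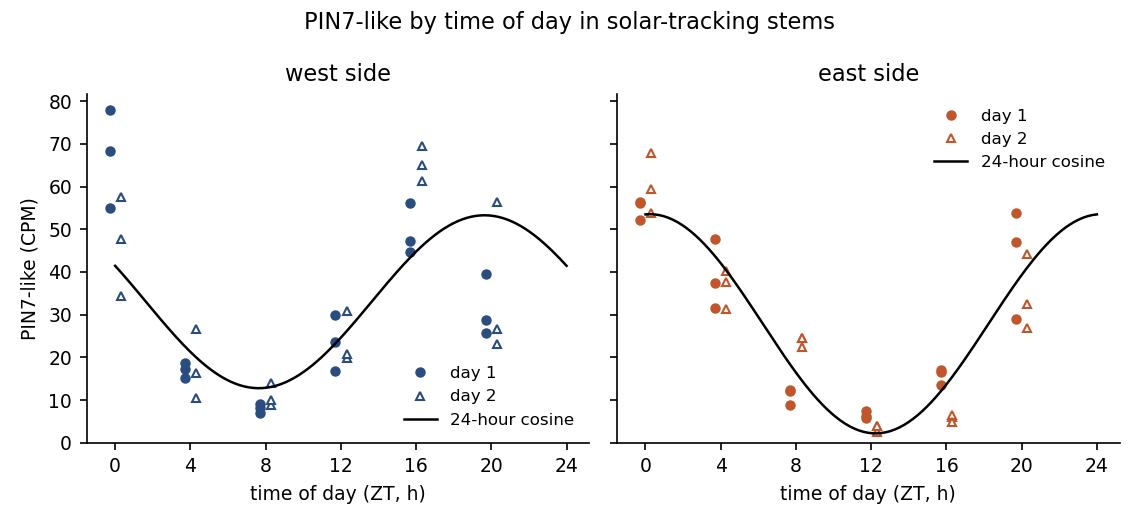
CPM of PIN7-like (vertical axis) in each field library against time of day (ZT, hours), west side on the left and east side on the right, filled circles for day 1 and open triangles for day 2; the line is the fitted 24 h cosine. The fitted peaks lie at 19.6 h on the west side and 0.238 h on the east side. The west levels lie farther from the line, and at ZT20, near the fitted peak, their mean was below those at ZT16 and ZT0.

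A 12 h component was added to test whether a 24 h cosine alone describes the levels. A single peak of another shape can also pass this test, so it does not count peaks. It gave an edgeR adjusted p of 3.71e-05 on the west side, where 19.1% of genes passed, and 0.0694 on the east side, where 21% passed. With the days combined, the west mean was higher at ZT0 and at ZT16 than at ZT20. The ZT0 group includes day 1 libraries taken before any at ZT20, and none followed ZT44. West means were 31.4 ± 7.28 CPM at ZT20 and 46.6 ± 11.6 CPM at ZT24 (SD, n = 3 each). Their ranges overlapped, at 25.8 to 39.6 CPM and 34.5 to 57.6 CPM, and this interval was not tested on its own. On the west side the component had an adjusted p of 0.00022 on day 1 alone and 0.0961 on day 2 alone, and on the east side 0.188 on day 1 alone and 0.000374 on day 2 alone, all in edgeR.

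PIN7-like is described here beside 5 other PIN-type genes annotated in the parts of the study's tables used here. All 6 passed the filter on low counts, and all 6 had been listed by the study for differences in these samples. Among the other 5, a PIN3-like gene (Ha412HOChr08g0333071), whose Arabidopsis match works in sideways auxin movement, had the most calls. It was higher on the shaded side at ZT4 (73.8 ± 13.4 CPM shaded and 42.5 ± 10.3 CPM lit, log2 fold change 0.80, edgeR adjusted p = 1.95e-06) and lower there at ZT12, ZT15, ZT18 and ZT21, with log2 fold changes between -0.56 and -0.44. In the field it was lower on the west side at ZT4, ZT8 and ZT12, and at ZT12 it averaged 105.5 ± 11.0 CPM on the west side and 167 ± 17.0 CPM on the east side (SD, n = 6 each), a log2 fold change of -0.67 (edgeR adjusted p = 7.35e-06), where PIN7-like was higher on the west side. Its heliotropism ZT4 call (adjusted p = 0.0304 in edgeR) was lost in all 6 fits that left out a replicate number, with adjusted p between 0.0666 and 0.185, and in the fit of that time alone (adjusted p = 0.222). Its phototropism calls were lost at ZT15 without replicate 1, 2, 3 or 6, at ZT18 without replicate 1, 2, 4 or 6 and at ZT21 without replicate 5 or in the fit of that time alone (adjusted p = 0.109).

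A second PIN3-like gene (Ha412HOChr12g0575561) was higher on the shaded side at ZT4 with 150 ± 25.4 CPM shaded and 68.2 ± 37.8 CPM lit, a log2 fold change of 1.13 (edgeR adjusted p = 1.76e-08). One PIN4-like gene (Ha412HOChr17g0853211) was also higher on the shaded side at ZT4, by 1.31 (adjusted p = 1.07e-09 in edgeR), and the other PIN4-like gene (Ha412HOChr12g0547581) was lower there at ZT4, ZT5, ZT7 and ZT21, by as much as -1.44 at ZT5 (adjusted p = 5.56e-13 in edgeR). The PIN5-like gene (Ha412HOChr14g0659371), whose Arabidopsis match sits in the endoplasmic reticulum, was lower on the shaded side at ZT12 and ZT18, by -1.22 and -1.20 (edgeR adjusted p of 0.00539 and 0.0127). Its ZT12 call was lost without replicate 4 and its ZT18 call without replicate 6, and the calls of Ha412HOChr12g0547581 were lost at ZT7 without replicate 1 or 2 and at ZT21 without replicate 2. With the replicate block, which pairs libraries in phototropism, 9 more of the 45 phototropism comparisons of these 5 genes were called and 0 of 14 calls were lost, where the block called 6777 of all genes in place of 3532 at ZT4 and 6532 in place of 2525 at ZT15. In the field, 4 of the other 5 were called at none of the 6 side comparisons in edgeR. In time order, edgeR called 0.0554%, 0.152%, 1.57%, 1.79%, 5.78% and 3.54% of all genes at these comparisons. Among these 4 genes DESeq2 called PIN4-like Ha412HOChr12g0547581 at ZT8 (adjusted p = 0.036) and PIN4-like Ha412HOChr17g0853211 at ZT16 (adjusted p = 0.0485). An edgeR fit with day as a term also called both (adjusted p of 0.0298 and 0.0499), limma called the first (adjusted p = 0.0463), and edgeR without day 1 replicate 1 called the second (adjusted p = 0.0357).

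**Figure D5:**
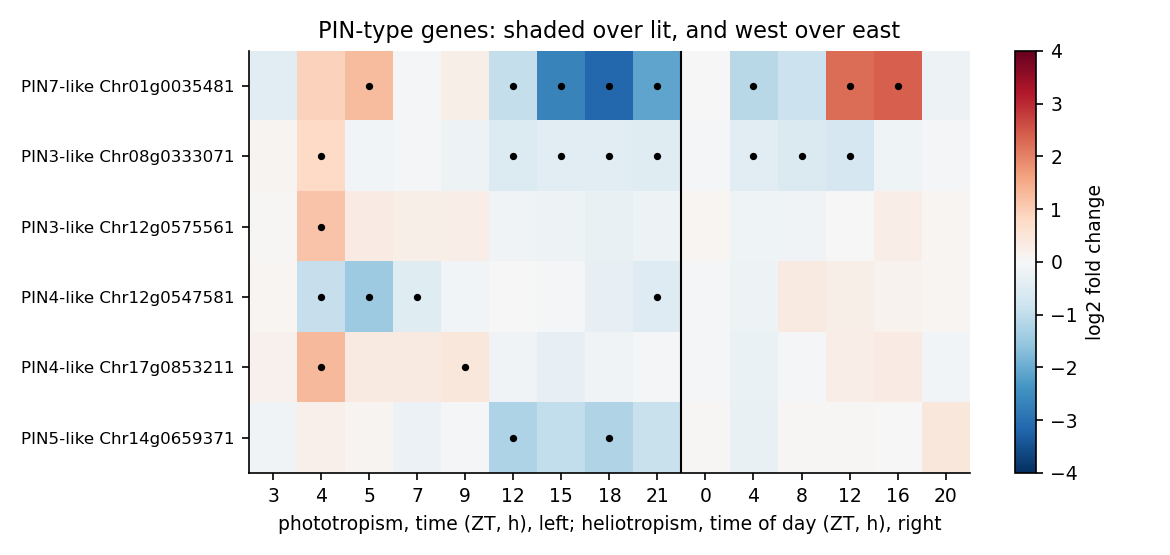
Log2 fold changes between the sides (color, shaded over lit on the left, west over east on the right) of 6 PIN-type genes at each time (ZT, hours); dots mark an edgeR adjusted p under 0.05. The PIN7-like row runs from -3.15 at phototropism ZT18 to 2.39 at heliotropism ZT16, and the PIN3-like gene in the second row is the only other one with dots in the field.

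The rest of the auxin transport machinery was counted from 7 lists of 44 genes, PIN-type genes included, of which the study had listed 34 for differences in these samples, so that these counts are not independent evidence. Among the 10 it had not listed, 1 was called at phototropism ZT4, 0 at ZT15, 0 at heliotropism ZT4 and 1 at heliotropism ZT16 in edgeR. The first was lower on the shaded side and the last lower on the west side. In time order these are shares of 10%, 0%, 0% and 10%, where 10.8%, 7.73%, 0.152% and 5.78% of all genes were called. At phototropism ZT4, 18 of 44 were higher and 4 lower on the shaded side, a share of 50%, where 10.8% of all genes were called. The median log2 fold change was 0.385, against -0.03 over all genes and 0.0213 over the 10 members that the study had not listed. ABCB transporters also carry auxin across the membrane, and 4 of 6 were higher there. So were 4 of 9 AGC kinases, a family that phosphorylates PIN proteins. The study had listed all 6 of the former and 8 of the latter. Of 8 PIN-type genes 3 were higher and 1 lower, and of 7 influx carriers 2 were higher. Of 4 PILS-type genes 1 was higher and 1 lower. Of 8 phototropins and NPH3/NPY family genes 4 were higher and 2 lower, and 0 of 2 PIN trafficking genes were called. The ABCB19-like gene Ha412HOChr15g0734121 had a log2 fold change of 1.06 (edgeR adjusted p = 0.00254), the D6PKL2-like kinase gene Ha412HOChr11g0494321 one of 0.79 (adjusted p = 5.66e-12) and the AUX1-like influx carrier gene Ha412HOChr06g0273181 one of 0.68 (adjusted p = 0.0263). A PHOT2-like gene, a homolog of a blue light receptor (Ha412HOChr07g0298471), was lower on the shaded side by -1.31 (edgeR adjusted p = 3.65e-06) and a PILS-type gene (Ha412HOChr14g0667111) by -1.50 (adjusted p = 0.0132). The AUX1-like call was lost without replicate 1, 3, 5 or 6 and the PILS-type call without replicate 3.

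At phototropism ZT15, 9 of 44 were lower and 0 higher on the shaded side in edgeR, a share of 20.5% where 7.73% of all genes were called, and 20 were called with the replicate block (4 higher and 16 lower), a share of 45.5% where 20% of all genes were called. An RPT2-like gene (Ha412HOChr08g0357441), a homolog of a phototropin signaling partner, was lower by -1.15 (edgeR adjusted p = 7.75e-07) and an ATPK7-like kinase gene (Ha412HOChr15g0708191) by -0.82 (adjusted p = 0.0029). The AUX1-like gene Ha412HOChr14g0688551, the PGP21-like gene Ha412HOChr10g0439411 and the PILS-type gene Ha412HOChr14g0667131 were lower by -0.54, -0.54 and -1.22 (edgeR adjusted p of 0.0449, 0.0245 and 0.0318). The first of these calls was lost in all 6 fits that left out a replicate number, the second without replicate 2, 4, 5 or 6 and the third without replicate 1, 2, 4 or 5.

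In the field at ZT4, 2 of 44 were called, both lower on the west side, PIN7-like and the PIN3-like gene Ha412HOChr08g0333071, whose call each omission of a replicate number removed, where 0.152% of all genes were called. At ZT16, 6 were higher and 4 lower on the west side, a share of 22.7% where 5.78% of all genes were called. The PINOID-like kinase gene Ha412HOChr04g0178961 was higher there by 0.83 (edgeR adjusted p = 0.00116), the ABCB19-like gene Ha412HOChr15g0734111 by 0.64 (adjusted p = 0.0119) and the NPY1-like gene Ha412HOChr06g0259651 by 0.57 (adjusted p = 0.0237). The AUX1-like gene Ha412HOChr06g0273181, higher on the shaded side at phototropism ZT4, was lower on the west side here by -0.56 (edgeR adjusted p = 0.00324), and the PILS-type gene Ha412HOChr09g0406791 was lower by -0.55 (adjusted p = 0.0383). Calls were lost for NPY1-like without day 1 replicate 3 or day 2 replicate 1 or 2, for ABCB19-like without day 2 replicate 3, and for the PILS-type gene without day 1 replicate 2 or 3 or day 2 replicate 1 or 2.

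A pair of IAA4-like genes and a SAUR12-like gene, auxin response genes that the study also followed and had listed in these samples, were read beside it. With the replicate block 11 more of their 27 phototropism comparisons were called, beside the added calls over all genes given above. The IAA4-like gene Ha412HOChr01g0004341 was higher on the shaded side at ZT4 by a log2 fold change of 1.65 (edgeR adjusted p = 1.17e-07) and higher on the west side at ZT16 by 1.02 (adjusted p = 7.73e-05). The SAUR12-like gene Ha412HOChr07g0303111, of a family that promotes cell expansion, was higher on the shaded side at ZT5 by 1.99 (edgeR adjusted p = 0.000726) and on the west side at ZT16 by 1.64 (adjusted p = 0.000112). The IAA4-like gene Ha412HOChr10g0435441 was lower on the shaded side at ZT15 by -0.70 (adjusted p = 0.038 in edgeR) and higher on the west side at ZT16 by 0.67 (adjusted p = 0.00172). Its ZT15 call was lost without replicate 1, 2, 3, 4 or 5.

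The genes with the most similar pattern were ranked by Pearson's correlation of log2 mean CPM across groups, for genes averaging 10 CPM or more, as a description with no test. Groups of one experiment share libraries and scaling across genes. In phototropism, over 18 groups and 16213 genes, the closest were a bHLH gene matching AT3G07340 (Ha412HOChr07g0287161, r = 0.832), a CIPK1-like kinase gene (Ha412HOChr05g0226891, r = 0.814), the genes Ha412HOChr08g0351971 (r = 0.809) and Ha412HOChr01g0043511 (r = 0.7996), and a malectin-type receptor kinase gene (Ha412HOChr04g0148681, r = 0.796). In heliotropism, over 24 groups and 16707 genes, they were the PINOID-like kinase gene Ha412HOChr04g0178961 (r = 0.913), a homeodomain-like gene matching AT5G28300 (Ha412HOChr13g0632801, r = 0.904), the IAA4-like gene Ha412HOChr01g0004341 (r = 0.881), an IAA3-like gene (Ha412HOChr15g0697381, r = 0.876) and an IAA14-like gene (Ha412HOChr03g0143141, r = 0.875). No gene was among the 5 closest in both experiments. PINOID is a kinase of PIN proteins in Arabidopsis, and the Arabidopsis IAA3, IAA4 and IAA14 proteins repress auxin responses.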

How the data were processed

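Per the labels and the study's methods, the authors filtered reads by quality, quantified them with Salmon 1.4.0 against transcripts made with Cufflinks 2.2.1 from the Ha412HOv2.0 genome and its Eugene annotation, and deposited these estimated counts for each gene without normalization. The authors also deposited a signal value, TMM-normalized CPM, used here only in 1 alternative. Salmon shares reads among similar transcripts, so counts of close PIN relatives may exchange reads. The tables held 0 columns of no known sample. Columns were matched to the labels, and 0 pairs of libraries were identical.

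Estimated counts were rounded to whole numbers. Tests covered the 32644 phototropism genes reaching 10 counts in 6 or more libraries and the 34315 heliotropism genes doing so in 3 or more, in R 4.3.3 with edgeR 4.0.16 (TMM scaling, quasi-likelihood F tests, p adjusted by Benjamini-Hochberg over all genes tested, threshold 0.05), with 1 group per side and time and the 2 field days combined, or split for tests within a day. CPM were computed from the rounded counts. Rhythms were fitted by least squares to CPM with a 24 h cosine and sine. Differences of rhythm and the 12 h component were tested in edgeR. The side comparisons and the 24 h cosine were also run on simulated counts, drawn without pairing between libraries, and the other tests were not. Alternatives used DESeq2 1.42.0 and limma 3.58.1 (log2 of CPM plus 1). Replicates of a side pooled different plants, and separate sowings are not stated, so p-values measure the spread between these pools. The main tests of both experiments treat the sides as independent. Yet the best match across sides had the same number in 54 of 54 phototropism pairs and 36 of 36 field pairs.

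Replicate numbers, tested before calls were compared, paired the sides in phototropism: deviations from group means of same-numbered libraries correlated between 0.242 and 0.751 in 54 of 54 pairs, over all genes. The source of the pairing is the data, since the labels give only the numbers. The main phototropism tests leave this pairing out, and values with the number as a block are given where a PIN7-like call changed.

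Named genes were PIN7-like, the PIN-type genes (except an item not reported here, which the list counts include), from each other list the called gene with the largest fold change at phototropism ZT4 and ZT15 and heliotropism ZT4 and ZT16, 3 genes the study followed, and the 5 most alike in each experiment. The gene, lists and rules were chosen with earlier results of these data known. The lists hold only genes annotated in the parts of the study's tables used here. The methods list 8 phototropism times without ZT4, and the labels 9.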

Additional observations from a re-analysis of the deposited data

Results flagged for a closer look

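In 3 of 30 groups of 6 libraries, 1 library of PIN7-like stood far from the other 5, where chance flags about 1 in 20 groups. These were a shaded library at ZT5 with 116 CPM (the next at 65.0 CPM), a shaded library at ZT12 with 30.7 CPM (the next at 18.3 CPM) and a lit library at ZT3 with 8.07 CPM (the next at 15.5 CPM).

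The side difference of PIN7-like was not the same at different times. By edgeR's interaction test, the shaded over lit log2 fold change differed between ZT15 and ZT4 by -3.60, and against ZT3 by 1.70 at ZT5, -2.24 at ZT15, -2.72 at ZT18 and -1.67 at ZT21. In the field the 24 h rhythm differed between the west and east sides, with an adjusted p of 1.68e-08 in edgeR.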

How the results depend on the processing

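Of 75 results on PIN7-like, 54 kept their side of the threshold under all alternatives run, and 44 of these also kept their direction. The other 10, called in none of the fits, changed sign in at least 1; no value called by either fit changed sign. The side difference at phototropism ZT7 turned positive in limma (0.13) and with the block (0.11), the shaded step from ZT7 to ZT9 in limma (0.041) and without the filter (0.0105) and the lit step from ZT18 to ZT21 in limma (0.11), and ZT44 within its day turned negative in limma (-0.053) and with the block (-0.036). At phototropism ZT4 the log2 fold change passed the threshold in DESeq2 (0.94), limma (0.93), upper-quartile scaling (0.96), the fit of that time alone (0.94) and the replicate block (0.93), and ranged from 0.75 to 1.08 when a replicate number was left out. The change from ZT3 to ZT4 passed in limma (1.46) and with the replicate block (1.401), and ranged from 0.98 to 1.62. ZT12 missed it without the filter on low counts (-0.96), as did the ZT21 change against ZT3 in limma (-1.54), without the filter (-1.68) and with upper-quartile scaling (-1.65), and the ZT15 change against ZT3 in a fit of those times alone (-2.23). In fits of the times compared alone, the shaded step from ZT12 to ZT15 missed it (-1.24), that from ZT9 to ZT12 passed (-1.03) and the west step from ZT16 to ZT20 missed it (-0.76). In the field, DESeq2 passed ZT8 (-0.88) and the change between days at ZT16 (1.84). The block changed no other phototropism call. On day 2 alone the 12 h component gave adjusted p of 0.0961 (west) and 0.000374 (east).

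Leaving out replicate numbers gave log2 fold changes of 0.99 to 1.47 at ZT5, -1.19 to -0.82 at ZT12, 1.37 to 2.01 for ZT5 against ZT3, -2.58 to -1.90 for ZT15 against ZT3, -1.91 to -1.48 for ZT21 against ZT3 and -1.71 to -0.82 for the shaded step from ZT12 to ZT15. In the field it gave -1.24 to -1.05 at ZT4, -1.32 to -1.09 at ZT4 of day 1, 1.60 to 2.14 at ZT12 of day 1, -1.31 to -0.98 at ZT32, -0.70 to -0.57 for the east step from ZT0 to ZT4, -0.96 to -0.62 for the west step from ZT16 to ZT20 and 0.66 to 1.01 for that from ZT20 to ZT0. The adjusted p of the east 12 h component ranged from 0.048 to 0.226. The 10 results that changed sign ranged from -0.21 to 0.43 for the side difference at phototropism ZT7, -0.014 to 0.13, -0.58 to 0.17 and -0.13 to 0.27 for the lit steps from ZT4, ZT7 and ZT18, -0.21 to 0.25 and -0.12 to 0.45 for the shaded steps from ZT7 and ZT15, -0.16 to 0.10 for the side difference at heliotropism ZT0, -0.55 to 0.52 at ZT44 within its day, and -0.16 to 0.33 and -0.095 to 0.97 for the change between days at ZT4 and ZT20. Of the other named genes, 19 uncalled comparisons changed sign. The cause of these changes was not tested.

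Of the 44 auxin transport genes, the replicate block called 29 at phototropism ZT4, 20 at phototropism ZT15, 4 at heliotropism ZT4 and 17 at heliotropism ZT16, in place of 22, 9, 2 and 10, where it called 20.8%, 20%, 1.56% and 12.5% of all genes. Of the 10 members that the study had not listed it called 3, 3, 0 and 2, in place of 1, 0, 0 and 1. In the field it also called the PIN3-like gene Ha412HOChr12g0575561 at ZT16 and the PIN4-like genes Ha412HOChr12g0547581 at ZT8 and Ha412HOChr17g0853211 at ZT12 and ZT16. By Spearman correlation, 2 of the 5 most similar genes in phototropism and 3 in heliotropism were again among the 5. In heliotropism the methods took both sides from the same plants but tie no number to a plant. Same-numbered libraries correlated above 0.1 in 27 of 36 pairs, and the fit without the block was kept. Yet in 36 of 36 pairs the west library correlated best with the east library of its own number. The main field tests leave this pairing out. With the block PIN7-like passed at ZT28 (-1.09, adjusted p = 0.0413 in edgeR), and the calls over all genes at ZT0, ZT4, ZT8, ZT12, ZT16 and ZT20 were 404, 534, 1782, 2782, 4289 and 3115 in place of 19, 52, 540, 613, 1983 and 1216. In phototropism the block called 0, 6777, 8616, 12189, 11988, 10347, 6532, 5681 and 5711 genes in time order, in place of 1, 3532, 4608, 7599, 7268, 5451, 2525, 2124 and 2030. Fits of 1 time alone called 1741 genes at phototropism ZT4, 344 at heliotropism ZT8 and 71 at heliotropism ZT20, against 3532, 540 and 1216, and DESeq2 called 53, 137 and 1041 at heliotropism ZT0, ZT4 and ZT12, against 19, 52 and 613; with day as a term ZT4 had 105. Steps between times could not be fitted with the block. The lowest count of PIN7-like in a library was 27.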
